A study of Rattus norvegicus with 458 samples.

Results

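The miRNAs of the rat heart were compared with those of skeletal muscle from the same animals, taken from the soleus and from the biceps femoris. The comparison used 30 of the 215 small RNA libraries of a rat tissue atlas, picked by their tissue labels: 10 from heart, 10 from soleus and 10 from biceps femoris, with 1 library of each tissue for each of 10 animals. The atlas covered 23 tissues and asked which miRNAs belong to single organs, so that they might mark injury of that organ when found in blood. The animals were naive Sprague Dawley rats, 5 males and 5 females, 12 to 13 weeks old, with no treatment and no engineered allele in any group. Tissues went into RNAlater after CO2 euthanasia, heart pieces with the batch of small samples and both muscles with a batch of heavier ones, and the chamber of the heart is not given in the sources used here. The collection batch thus ran along with heart against muscle in all 30 libraries, and its effect was not tested. RNA was isolated with miRNeasy columns and sequenced from TruSeq small RNA libraries on an Illumina HiSeq instrument.

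The libraries held between 2993535 and 10086504 miRNA counts, 3853313 to 10086504 in heart, 3181028 to 6468373 in soleus and 2993535 to 8452854 in biceps. RNA integrity numbers lay between 7.6 and 8.1 in heart, 6.9 and 8.5 in soleus, and 7.2 and 8.2 in biceps, and 2 soleus and 4 biceps RNAs but 0 heart RNAs had been extracted again. Levels are given as CPM, the number of counts of a name after each library was brought to the same total. In a check of the labels, each of the 30 libraries correlated best with the other libraries of its own tissue. The libraries of heart 3, soleus 8 and biceps 10 stood apart in where their reads began, and each included a run on lane 8 of flow cell C2BUMACXX. On those runs a median of 57.6%, 57.6% and 59.8% of a miRNA's counts began 1 base upstream of its usual first base, against 0.0404%, 0.0501% and 0.0% on the other run of the same library. Named miRNAs whose call these 3 libraries change are given with and without them.

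MiRNAs are short RNAs, cut from a hairpin, that guide repression of messenger RNAs through base pairing of their seed, the bases near the 5′ end. Striated muscle devotes a large part of its miRNA pool to a few families, miR-1, miR-133 and miR-206, which act on growth and differentiation of muscle cells, and to miRNAs encoded inside myosin heavy chain genes, which are made together with their host myosin. Heart and limb muscle share the contractile program but differ in embryonic origin, in fiber type, and in the non-muscle cells between the fibers.

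Mature sequences explain which of the measured names can act on the same targets, so those that carry the main differences are shown, 5′ to 3′, from RefSeq on the rat build GRCr8, with the seed (bases 2 to 8) in capitals. Of 400 single names tested, 329 matched a RefSeq sequence. The miRNAs hosted by myosin genes, of which miR-208a and miR-208b share a seed, were as follows.
miR-208a-3p: aUAAGACGagcaaaaagc
miR-208b-3p: aUAAGACGaacaaaaggu
miR-499-5p: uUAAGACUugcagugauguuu
The muscle families form pairs with identical seeds, whose members differ only outside it.
miR-1-3p: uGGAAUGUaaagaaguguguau
miR-206-3p: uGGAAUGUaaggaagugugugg
miR-133a-3p: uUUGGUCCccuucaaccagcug
miR-133b-3p: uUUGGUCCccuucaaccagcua
Names that were far higher in heart than in both muscles, where they were near 0, had unrelated seeds.
miR-490-3p: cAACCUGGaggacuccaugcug
miR-3585-5p: uUCACAAGaaggugucuuucau
miR-201-5p: cACUCAGUaaggcauuguuc
miR-6314: aGGCACUGacagaucugauggu
Of the miRNAs of the HOX gene clusters shown next, all but miR-10a-5p were lower in heart.
miR-196a-5p: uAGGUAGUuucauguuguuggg
miR-196b-5p: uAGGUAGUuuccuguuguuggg
miR-10a-5p: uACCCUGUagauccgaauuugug
miR-10b-5p (RefSeq): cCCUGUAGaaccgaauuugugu
miR-10b-5p (leading deposited sequence): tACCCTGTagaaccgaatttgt
A pair of imprinted miRNAs from chromosome 6 stand for the large group of names that was low in heart.
miR-434-3p: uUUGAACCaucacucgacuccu
miR-381-3p: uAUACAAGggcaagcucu

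On GRCr8, miR-208a-3p lies at chr15:32395568-32395585 on the minus strand within the span of Myh6, the gene of alpha myosin heavy chain, and miR-208b-3p lies at chr15:32421648-32421665 on the same strand within Myh7, the gene of the slow beta chain. miR-499-5p is at chr3:164570616-164570636 on the plus strand within Myh7b. miR-490-3p is at chr4:66014644-66014665 on the plus strand within Chrm2, the gene of the M2 muscarinic receptor that slows the heart. miR-206-3p at chr9:30590747-30590768 and miR-133b-3p at chr9:30594629-30594650 are neighbors on the plus strand outside protein-coding genes, whereas miR-1-3p (chr18:2160339-2160360) and miR-133a-3p (chr18:2157886-2157907) sit on the minus strand within Mib1. miR-10b-5p lies at chr3:80035886-80035907 on the plus strand within the span of Hoxd4, and miR-434-3p lies at chr6:134330451-134330472 on the plus strand within the span of Rtl1.

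Of 560 miRNA names with enough counts to test, 402 (71.8%) differed between heart and the mean of both muscles in an edgeR quasi-likelihood test with the animal as a block (adjusted p below 0.05), 223 of them higher in heart (39.8%) and 179 lower (32.0%). The value tested is the mean of the log2 differences of heart from soleus and from biceps, so a name whose muscles differ widely can have a positive value although the muscles' mean CPM is above that of heart. With at least a 2-fold difference in addition, 93 names were higher (16.6%) and 129 lower (23.0%). Every heart library lay above all 20 muscle libraries for 68 names (12.1%) and below all of them for 102 (18.2%). Most names therefore differed, and the counts within each group of miRNAs below are to be read against these shares. The median log2 difference over all names was 0.12. It depended on the scaling: with TMM factors the differences shifted by a median of -0.27 and with DESeq2 by -0.22, so that 44.8% and 46.1% of the calls, instead of 55.5%, were higher in heart. The direction of a small difference is therefore given under both scalings where it flips. These are bulk tissues, in which fewer cells of a type and less RNA per cell cannot be told apart.

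**Figure D1:**
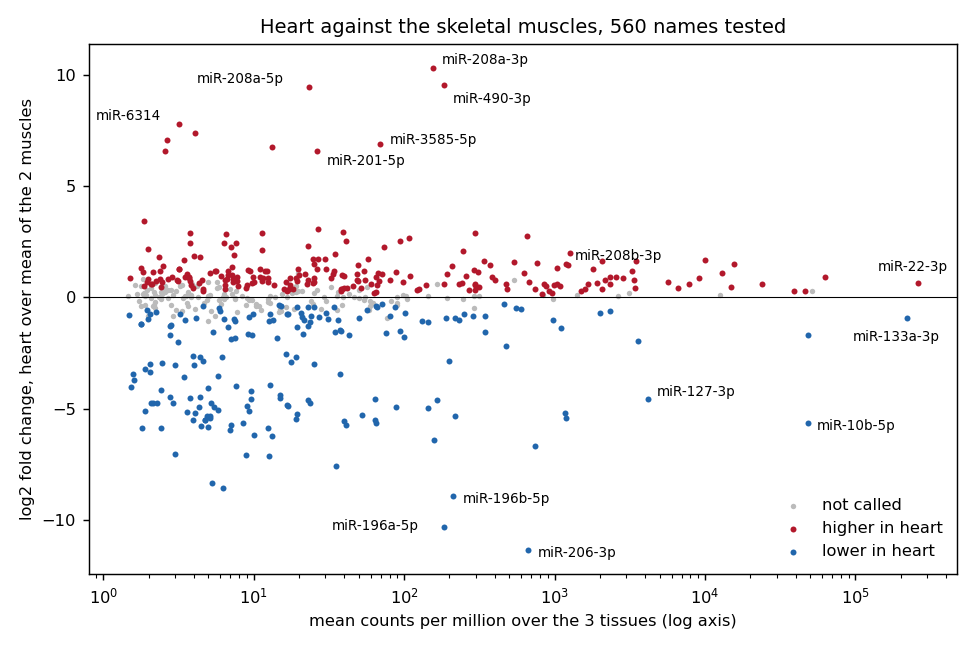
Log2 difference between heart and the mean of the soleus and the biceps femoris (vertical axis) against the mean level over the 3 tissues in CPM (log axis) for the 560 names tested; each point is a name, red where heart was higher and blue where it was lower at an adjusted p below 0.05, gray where not called. A small set above 5 (miR-208a, miR-490-3p, miR-3585-5p and others) faces a larger and more graded set below -4, with miR-206-3p, miR-196a-5p and miR-196b-5p at its lower end.

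All 6 names from myosin genes were called with a positive mean of the log2 differences from soleus and from biceps (median 2.51), but the muscles differed from each other. For both arms of miR-208b the mean CPM of the muscles was above heart in 10 of 10 animals, so that these arms were higher in heart against biceps alone. DESeq2 called 5 of the 6, with miR-208b-5p the exception (0.43). miR-208a-3p, made from the alpha myosin gene that the adult rat ventricle uses, was at 344, 469 and 518 CPM in the lowest, the median and the highest heart library. The soleus gave 0, 0.279 and 0.829 CPM in the same order, and the biceps 0, 0 and 6.57. Heart libraries were thus all above the muscle libraries, among which biceps 7 alone exceeded 1 CPM, and the log2 difference was 10.31 ± 0.45 (SE; adjusted p = 2.4e-15). The other arm, miR-208a-5p, held 3942 counts over the 10 heart libraries against 3 over the soleus and 6 over the biceps libraries. Its share of counts in heart was 1196 times that in soleus (exact 95% interval 409 to 5804, counting error only). Both arms were called higher in heart, as 49.6, 67.5 and 93.4 CPM in the lowest, median and highest heart library left no overlap with a highest muscle library of 1.36 CPM.

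miR-208b-3p, from the slow beta myosin gene, fell between the muscles. It was at 236, 465 and 883 CPM (lowest, median, highest) in heart, at 2349, 3000.3 and 3951 in soleus and at 0.5, 3.62 and 124 in biceps. The ranges of the 3 tissues did not touch: soleus was highest, heart intermediate and biceps lowest, with 3 biceps libraries (animals 3, 2 and 4) at 38.7, 119 and 124 CPM and the other 7 below 7. Heart was lower than soleus by a log2 difference of -2.47 ± 0.62 (adjusted p = 0.00132) and higher than biceps by 5.51 ± 0.77 (adjusted p = 1.18e-06). In CPM heart had a mean of 517 and the muscles together one of 1522. The mean of both log2 differences, 1.52 ± 0.54 (adjusted p = 0.0157), was not called without the animal block (0.91, adjusted p = 0.129), nor without animal 6 (1.23, adjusted p = 0.0503) or without the re-extracted muscle RNAs (1.04, adjusted p = 0.0923). Of its 5p arm the biceps libraries held 0 counts against 43 in heart, at least a 12.7-fold higher share in heart with a floor of 3 counts over the group.

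miR-499-5p, from the ancient slow myosin gene Myh7b, separated the biceps from both other tissues. Its lowest, median and highest libraries held 811, 879 and 1079 CPM in heart, 759, 1048 and 1222 in soleus and 5.68, 16.4 and 53.1 in biceps. Heart and soleus overlapped over nearly their whole range, with a log2 difference of -0.02 ± 0.18 (adjusted p = 0.936), while heart exceeded biceps by 5.52 ± 0.22 (adjusted p = 7.55e-16). The median over the 6 myosin names was 0.05 against soleus and 5.52 against biceps, where the heart libraries are the same in both comparisons. Summed over the 6 names, heart libraries held 1641 to 2482 CPM, soleus 3331 to 5197 and biceps 7.01 to 178.

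**Figure D2:**
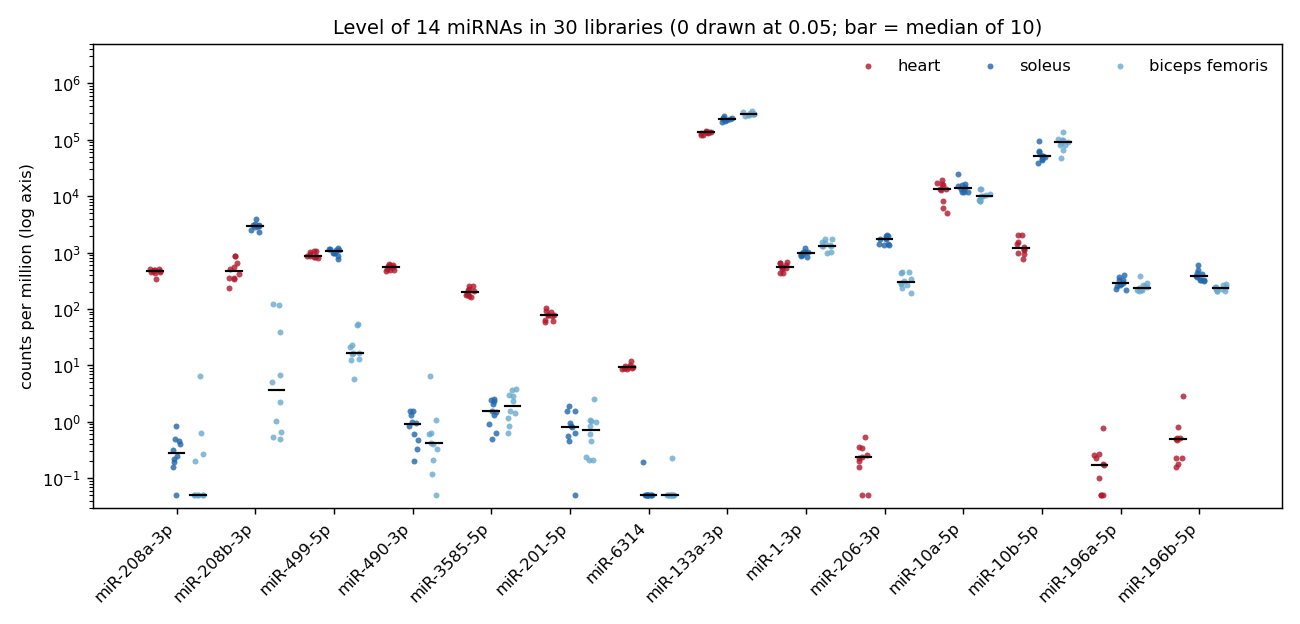
Level of 14 miRNAs in CPM (log axis, 0 drawn at 0.05) in each of the 10 heart, 10 soleus and 10 biceps femoris libraries; each point is a library and the bar is the median. miR-208a-3p, miR-490-3p, miR-3585-5p, miR-201-5p and miR-6314 were far higher in heart than in both muscles, miR-206-3p, miR-10b-5p, miR-196a-5p and miR-196b-5p were far lower, and miR-10a-5p overlapped.

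The 9 names of the miR-1, miR-133 and miR-206 families were all lower in heart, with a median log2 difference of -0.996, and 5 of them without overlap. miR-133a-3p, which restrains proliferation and serum response factor signaling in muscle, was the most counted name in biceps and among the most counted in every tissue. It was at 120667, 137234 and 140839.5 CPM in the lowest, median and highest heart library, at 210507, 233993 and 260499.8 in soleus and at 267349.9, 282357 and 325779 in biceps. No heart library reached a muscle library, and the log2 difference of -0.90 ± 0.09 (adjusted p = 2.57e-09) was made up of -0.68 against soleus and -1.13 against biceps. miR-1-3p, a driver of muscle differentiation, showed the same order with 433, 554 and 682 CPM in heart, 829, 983 and 1221 in soleus and 995, 1319 and 1760.3 in biceps. It differed by -0.996 ± 0.08 on the log2 scale (adjusted p = 3.64e-10), again without overlap. In a fit of 19 tissues, where the spread is estimated over all of them, neither miR-133a-3p (adjusted p = 0.254) nor miR-1-3p (adjusted p = 0.189) was called.

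miR-206-3p, the skeletal member that shares its seed with miR-1-3p and is induced by myogenic regulators, was the name with the largest negative difference. Heart libraries held 0, 0.236 and 0.531 CPM, with 14 counts in all, against 1341, 1724 and 2065 in soleus and 193, 301 and 459.9 in biceps. The lowest muscle library was biceps 7, far above every heart library, and the log2 difference was -11.35 ± 0.28 (adjusted p = 1.52e-19). Its neighbor on chromosome 9 followed: miR-133b-3p was at 12.7, 18.8 and 226 CPM in heart, 142, 299 and 1283 in soleus and 76.9, 99.5 and 792 in biceps. All 3 highest values came from the libraries with a lane 8 run, and heart 3 alone overlapped the muscles. With all libraries the log2 difference was -2.84 ± 0.44 (adjusted p = 4.27e-06). Without those 3 it was -2.996 ± 0.19 (adjusted p = 2.44e-11), and heart, at 12.7 to 58.3 CPM, no longer overlapped soleus (142 to 499.9) or biceps (76.9 to 129). miR-133b-5p had 0 counts in heart against 385 in soleus and 66 in biceps, which puts it at least 141-fold higher in soleus and at least 24.8-fold higher in biceps.

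Other names of these families were lower in heart by similar amounts. Reads that fit both miR-133a-3p and miR-133b-3p were at 786, 1125 and 2196 CPM in heart, below all muscle libraries (log2 difference -1.94 ± 0.15). miR-133a-5p, the other arm of the miR-133a hairpin, differed by -0.83 ± 0.10, also without overlap. The names miR-1 and miR-1a-3p, listed in the files beside miR-1-3p, overlapped between the tissues and gave -0.87 ± 0.14 (adjusted p = 6.8e-06) and -0.81 ± 0.32 (adjusted p = 0.0251). miR-1a-3p was higher on lane 8 (heart 3 had 1116 CPM on that run and 125 on the other), and it lost its call without animal 4, 7, 8 or 11 (adjusted p between 0.0516 and 0.061). Without the 3 libraries with a lane 8 run it was -0.90 ± 0.18 (adjusted p = 0.000139). In sum the 9 names took 122917 to 142915 CPM of a heart library, 218787 to 268834 of a soleus and 273534 to 333214 of a biceps library. Of the mean sum of 135666 CPM in heart, miR-133a-3p held 133421 and miR-1-3p 561. The paper states that ligase bias may leave some miRNAs over- or under-represented, which limits comparing levels between names.

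Outside these families, the names with the largest excess in heart were miR-490-3p, a group from 1 stretch of the X chromosome, and miR-6314. miR-490-3p, studied in heart and smooth muscle as the intronic partner of Chrm2, was at 464, 559 and 618 CPM in heart, 0.198, 0.899 and 1.57 in soleus and 0, 0.419 and 6.35 in biceps. No muscle library came near the heart libraries, and biceps 7, which also had the highest muscle value of miR-208a-3p, was the highest. The log2 difference was 9.56 ± 0.33 (adjusted p = 3.04e-17). Among all 23 tissues the heart mean (548 CPM) ranked first, ahead of the brainstem (271 CPM).

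miR-3585-5p and miR-201-5p lie at chrX:151706773-151706794 and chrX:151711832-151711851, both on the minus strand and outside protein-coding genes, in a region whose miRNAs are abundant in testis. miR-3585-5p was at 164, 200.004 and 255 CPM in heart, 0.486, 1.54 and 2.57 in soleus and 0.641, 1.94 and 3.85 in biceps. It did not overlap and differed by 6.91 ± 0.23 on the log2 scale (adjusted p = 1.34e-17). miR-201-5p was at 58.0, 78.2 and 104.99 CPM in heart with a highest muscle library of 2.56, a log2 difference of 6.59 ± 0.27 (adjusted p = 7.52e-16). The other names of the stretch, chosen after their values were seen, went the same way: miR-3585-3p (25.8, 37.5 and 57.1 CPM in the lowest, median and highest heart library), miR-547-5p (8.43, 12.5 and 18.3) and miR-547-3p (3.89, 8.02 and 10.4), so that all 5 names placed at chrX:151706741-151712151 were higher in heart, by 6.59 to 7.41 on the log2 scale. For miR-547-5p there were 710 counts in heart against 2 in soleus and 3 in biceps, ratios of 323 (exact 95% interval 89.2 to 2674) and 209.9 (71.5 to 1020). In the testis, outside this comparison, miR-3585-5p had a mean of 16565 CPM and in the ovary 498, so heart with 205 CPM ranked the third of 23 tissues.

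miR-6314, a little studied miRNA at chr2:199217782-199217803 on the plus strand within Fndc7, was low but steady in heart. Its libraries held 8.77, 9.28 and 12.0 CPM, against 1 count in all soleus libraries together and 1 in all biceps libraries. The share in heart was 496 times that in soleus (exact 95% interval 88.7 to 19636) and 483 times that in biceps (86.4 to 19126). No other of the 23 tissues had a mean above 0.319 CPM.

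Of the 12 largest differences upward among names without overlap and with at least 50 CPM, the others were between 2.25 and 3.06 on the log2 scale. miR-451-5p, miR-144-3p and miR-144-5p, made in red blood cells, are described with the blood markers. miR-107-3p, which lies in the pantothenate kinase gene Pank1, was at 178, 236 and 289 CPM in heart, 51.6, 73.6 and 80.7 in soleus and 15.5, 20.8 and 30.8 in biceps, with the tissues in that order and apart (log2 difference 2.67 ± 0.10, adjusted p = 3.01e-16). miR-103-3p, which has the same seed and was added after its value was seen, differed by 1.08 ± 0.08 (adjusted p = 3.74e-11). miR-29b-3p, a repressor of collagen genes, was at 68.9, 90.3 and 109 CPM in heart and differed by 2.56 ± 0.12 (adjusted p = 3.86e-15). miR-181c-3p was at 173, 192 and 249 CPM in heart, 52.2, 67.9 and 75.1 in soleus and 14.5, 17.3 and 35.04 in biceps (log2 difference 2.54 ± 0.08, adjusted p = 1.13e-17). miR-210-3p, the miRNA induced by hypoxia-inducible factor, was at 112, 148 and 184 CPM in heart, 36.7, 57.1 and 68.1 in soleus and 11.02, 18.0 and 36.8 in biceps, a difference of 2.25 ± 0.10 (adjusted p = 2.49e-15). For each of these 4 names heart lay above both muscles in every library, and biceps was the lowest by median. The heart mean of miR-210-3p (147 CPM) was the highest of the 23 tissues, followed by the testis (116 CPM).

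The most abundant names also differed, though by less. miR-22-3p, a miRNA of cardiac hypertrophy and stress, was the most counted name in heart. It was at 306810.0, 330515 and 352535 CPM there, at 222676, 260115 and 306211 in soleus and at 176907, 187133 and 203743 in biceps. The lowest heart library stood just above the highest soleus library, and the log2 difference was 0.64 ± 0.06 (adjusted p = 3.52e-09). With no filter on low counts it was 0.38 and not called (adjusted p = 0.178). miR-30a-5p, of a family that is abundant in cardiac muscle cells, was at 42137, 50602 and 62711 CPM in heart and differed from the muscles by 0.30 ± 0.09 (adjusted p = 0.00362), a value that shrank to 0.03 with TMM scaling and 0.08 with DESeq2, where it was not called. miR-378a-3p, which is made with the metabolic coactivator gene Ppargc1b, went the other way with 16205, 18631 and 20760.5 CPM in heart, 39982, 48476 and 57191 in soleus and 67762, 80044 and 87692 in biceps. Its difference was -1.68 ± 0.09 (adjusted p = 4.93e-14) without overlap, and the 4 names of the miR-378 family were all lower in heart (median -1.62).

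Markers of the non-muscle cells of the tissue were examined as lists. The endothelial pair miR-126a-3p and miR-126a-5p, made in blood vessel lining cells from the gene Egfl7, was higher in heart and did not overlap. miR-126a-3p was at 5508, 6186 and 6597 CPM in heart, 2401, 2566 and 2935 in soleus and 1256, 1592 and 2042 in biceps (log2 difference 1.64 ± 0.07, adjusted p = 2.06e-15). miR-126a-5p was at 15027, 17669 and 21379.9 CPM in heart and differed by 1.70 ± 0.07 (adjusted p = 4.05e-16). Their sum lay between 21204 and 27816 CPM in heart, 9008 and 11477 in soleus, and 4192 and 8577 in biceps, so heart was the richest and biceps the poorest of the 3, and the heart mean of miR-126a-3p was the highest of 23 tissues. All 4 smooth muscle names were higher in heart as well (median 0.92). miR-143-3p, a marker of vascular smooth muscle and fibroblasts, was at 71596, 89896 and 96205 CPM in heart, 45871, 58818 and 86357 in soleus and 25948, 39605 and 61997 in biceps. It overlapped between heart and soleus, through soleus 8, and differed by 0.91 ± 0.09 (adjusted p = 5.46e-09). Without the 3 libraries with a lane 8 run there was no overlap, as soleus ended at 68392 CPM and heart began at 71596, and the difference was 0.94 ± 0.07 (adjusted p = 5.89e-10). Of the other 3, miR-145-3p had the largest difference, 1.3997 ± 0.12 (adjusted p = 4.74e-10), without overlap.

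Blood markers did not move as 1 group. Of 8 erythroid names, 3 were higher in heart, 2 lower and 3 not called (median 0.53), against 4 higher and 2 lower without the 3 libraries with a lane 8 run. miR-451-5p, the red cell miRNA cut without Dicer, was at 446, 607 and 1081 CPM in heart, 61.3, 109 and 125 in soleus and 54.2, 83.9 and 132 in biceps (log2 difference 2.88 ± 0.14, adjusted p = 8.35e-15). Its cluster partners miR-144-3p (3.06 ± 0.16) and miR-144-5p (2.93 ± 0.16) gave like values, each without overlap, and whole blood held more miR-451-5p (5052 CPM) than heart (692 CPM). The composite of miR-486-5p and miR-3107-5p, which muscle makes too, was at 33739.9, 55675 and 91879.9 CPM in heart, 26379, 45193 and 64235 in soleus and 33947, 50538 and 73574 in biceps. These ranges overlapped and the difference of 0.28 ± 0.14 missed the threshold (adjusted p = 0.0748), although it passed without those 3 libraries (0.29, adjusted p = 0.042), without animal 3 (0.35) and without animal 10 (0.33). The 3p arms of this hairpin were lower in heart, miR-486-3p by -0.94 ± 0.11 (adjusted p = 4.42e-08). Single-name miR-486-5p was at 317, 351 and 10334 CPM in heart, and in each tissue its highest value was the library with a lane 8 run; without those it ended at 675, 521 and 549 CPM and differed by -0.04 ± 0.15 (adjusted p = 0.826).

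Among 8 leukocyte names, 6 were higher in heart, 1 was lower and 1 was not called (median 0.91). miR-150-5p, a lymphocyte miRNA, was at 1598, 2042 and 2676 CPM in heart, 771, 992 and 1358 in soleus and 425, 589 and 731 in biceps, without overlap (log2 difference 1.47 ± 0.09, adjusted p = 8.31e-13). miR-142-5p, which blood cells of most lineages express, was at 573, 634 and 696 CPM in heart and also above every muscle library (1.47 ± 0.10, adjusted p = 8.75e-12). miR-146a-5p, an inhibitor of innate immune signaling, differed by 1.13 ± 0.15 (adjusted p = 3.54e-07) with overlap. The myeloid miR-223-3p was at 38.6, 43.3 and 50.1 CPM in heart and at 25.3, 35.2 and 73.6 in soleus and 33.7, 44.9 and 58.1 in biceps, and was not called (adjusted p = 0.271), whereas its low 5p arm was lower in heart (-0.98 ± 0.26, adjusted p = 0.00175). The 8 names summed to 2881 to 4054 CPM in heart, 1240 to 1966 in soleus and 955 to 1499 in biceps. In whole blood the composite of miR-486-5p and miR-3107-5p alone took a mean of 852125 CPM, against 57058 in heart. This lowers the CPM of every other name in blood, so the values that follow compare shares of counts and not amounts. In whole blood, mean levels were below heart for miR-150-5p (299 against 2060 CPM) and miR-146a-5p (72.9 against 477). So were those of miR-223-3p (24.2 against 44.0) and miR-155-5p (6.10 against 12.4). Above heart were miR-142-5p (1008 against 629), miR-142-3p (106 against 67.3), miR-150-3p and miR-223-5p. Whether blood or vessels in the tissue have a part in the other differences was not tested.

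Of the 13 fibroblast and matrix names, 7 were higher, 3 lower and 3 not called (median 0.60). The miR-29 members, which repress collagens, were among the higher: miR-29a-3p was at 2479, 2912 and 3228 CPM in heart and differed by 1.28 ± 0.07 (adjusted p = 1.19e-13), and miR-29c-3p by 1.24 ± 0.08 (adjusted p = 1.3e-12), both without overlap. miR-21-5p, induced in activated fibroblasts, was at 2698, 2888 and 3201 CPM in heart, 1598, 1993 and 3349 in soleus and 1578, 1773 and 4680.4 in biceps, a difference of 0.60 ± 0.12 (adjusted p = 0.000148) with biceps 2 and soleus 11 above all heart libraries. The mesenchymal miR-199a-3p was lower in heart, at 1341, 1571 and 1984 CPM against 1961, 2884 and 3807 in soleus and 1594, 2239.8 and 3930.4 in biceps (-0.60 ± 0.11, adjusted p = 2.39e-05), as were miR-199a-5p (-0.75) and miR-214-3p (-0.81) from the same family of loci. Names of this list thus went in both directions.

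**Figure D3:**
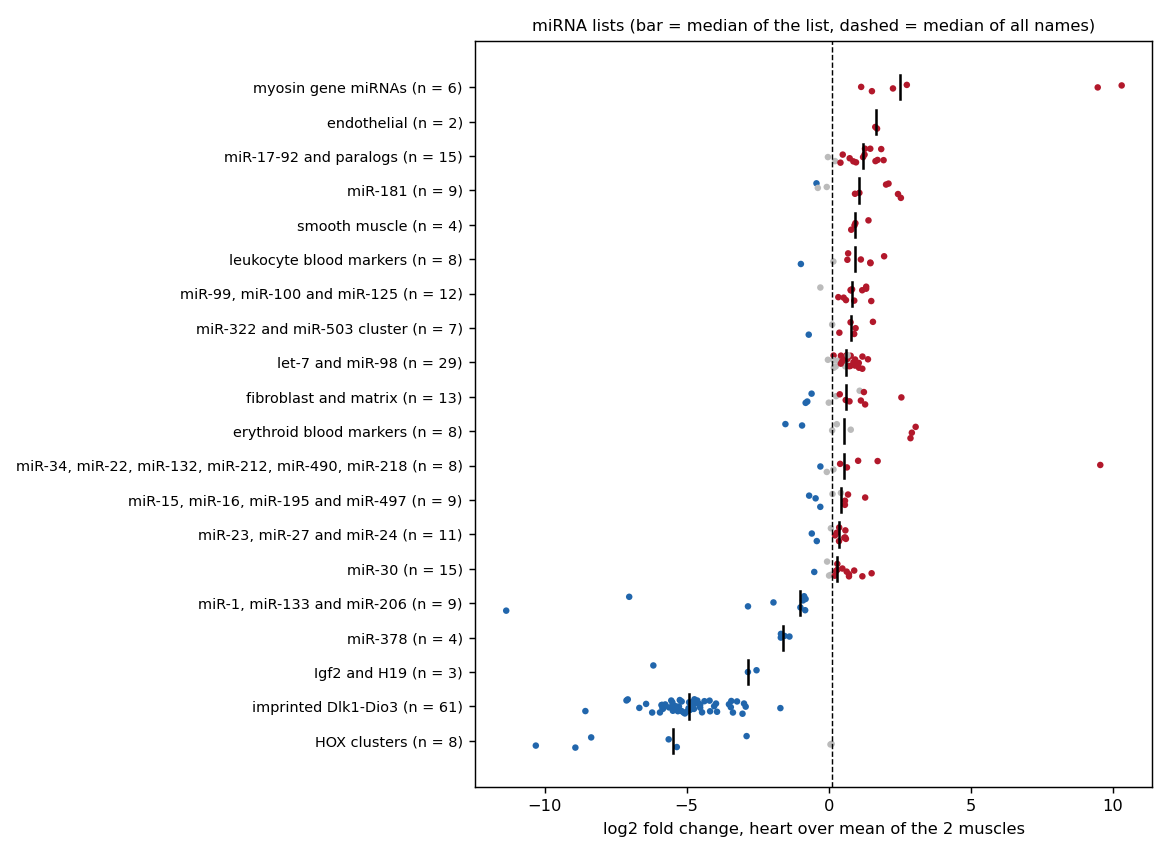
Log2 difference between heart and the mean of both muscles for every tested name of 20 lists; each point is a name, red where higher in heart, blue where lower, gray where not called, with the median of the list as a bar and the median of all 560 names (0.12) as a dashed line. The imprinted Dlk1-Dio3 names and most HOX cluster names lie far to the left, and only the myosin names and miR-490-3p reach far to the right.

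The HOX cluster miRNAs sit between genes that lay out the body axis, and 6 of the 8 names tested were lower in heart, with a median log2 difference of -5.49 and no overlap in any of the 6. miR-196a-5p was at 0, 0.173 and 0.779 CPM in heart, with 10 counts in all, against 217, 284 and 400.5 in soleus and 207, 238 and 382 in biceps (-10.31 ± 0.29, adjusted p = 1.96e-18). miR-196b-5p, with the same seed, was at 0.16, 0.489 and 2.85 CPM in heart, 318, 377 and 608 in soleus and 211, 235 and 281 in biceps (-8.92 ± 0.34, adjusted p = 1.6e-16). The highest heart library of either name was below 3 CPM. Of the passenger arm miR-196a-3p no count was found in heart, against 425 in soleus and 377 in biceps, at least 156-fold and 142-fold higher in the muscles. miR-10b-5p was at 767, 1205 and 2061 CPM in heart, 38008, 50767 and 95027 in soleus and 46670.2, 89774 and 138890.0 in biceps (-5.63 ± 0.25, adjusted p = 3.76e-15), so that it ranked among the 5 most counted names of each muscle. Its relative miR-10a-5p, whose seed is that of the leading deposited miR-10b-5p sequence, was at 5136, 13462 and 19344 CPM in heart, 11796, 13966 and 24992 in soleus and 8326, 10116 and 13419 in biceps. The ranges overlapped and the difference of 0.10 ± 0.20 was not called (adjusted p = 0.666), and neither was miR-10a-3p (0.06 ± 0.20, adjusted p = 0.81). The value of miR-10a-5p turned to -0.17 with TMM and to -0.12 with DESeq2, and neither called it. Heart libraries spread more widely in miR-10a-5p than the other tissues, from 5136 in heart 8 to 19344 in heart 5.

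The largest group was that of the imprinted Dlk1-Dio3 region on chromosome 6, whose miRNAs are expressed from the maternal allele and are high in brain and embryo. All 61 names tested were lower in heart than in the muscles, with a median of -4.93 and a range from -8.56 to -1.70, and 58 of them did not overlap. Over all 560 names the median was 0.12 and 32.0% were lower. Summed, these names took 262 to 561 CPM in heart, 8387 to 23149 in soleus and 8274 to 16988 in biceps. The 16 names placed at chr6:134306510-134331404 had a median of -5.45, and the 41 placed at chr6:134543460-134579828 one of -4.75. Within the first stretch, where several hairpins lie antisense to the growth regulator Rtl1, miR-434-3p was at 24.1, 35.3 and 61.0 CPM in heart, 982, 1498 and 2616 in soleus and 1279, 1851 and 2666 in biceps (-5.40 ± 0.14, adjusted p = 5.81e-19). miR-127-3p, in the same antisense unit, was at 157, 227 and 360.5 CPM in heart, 3854, 4959 and 10891 in soleus and 3947, 6349 and 9199 in biceps (-4.57 ± 0.20, adjusted p = 1.47e-15). Neither came within a factor of 10 of the muscles.

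In the second stretch, miR-381-3p was at 5.06, 8.83 and 13.9 CPM in heart, 892, 1411 and 3094 in soleus and 407, 589.9 and 764 in biceps (-6.67 ± 0.22, adjusted p = 1.86e-17). Here soleus exceeded biceps, with no overlap between the muscles. miR-411-5p was at 30.4, 44.1 and 57.2 CPM in heart, 1163, 1549.5 and 3311 in soleus and 1112, 1734 and 2566 in biceps (-5.17 ± 0.17, adjusted p = 1.13e-17). Elsewhere in the region, members with large differences were miR-136-5p (-6.43 ± 0.20), miR-337-5p (-5.54 ± 0.19), miR-434-5p (-5.49 ± 0.17), miR-136-3p (-5.31 ± 0.23) and miR-431 (-5.27 ± 0.23), each without overlap. For miR-540-5p no count was found in heart, against 487 in soleus and 442 in biceps, at least 178-fold and 166-fold higher in the muscles. The smallest difference of the region was that of miR-323-3p (-1.70 ± 0.21). The 61 names were also all lower in heart with TMM (median -5.20), with library totals alone (-4.98) and with DESeq2 (-5.25), and the median was the same with miR-540-5p set at its bound.

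Names of another imprinted region were lower in heart as well. miR-675-3p, made from the maternally expressed H19 RNA, was at 0, 0.183 and 0.321 CPM in heart, 5.05, 7.82 and 12.4 in soleus and 12.9, 21.2 and 33.2 in biceps (-6.17 ± 0.29, adjusted p = 9.14e-15). miR-483-3p, from the neighboring growth factor gene Igf2, was at 1.85, 2.44 and 3.67 CPM in heart, 4.36, 6.16 and 10.6 in soleus and 6.97, 34.6 and 91.6 in biceps (-2.54 ± 0.30, adjusted p = 9.11e-08). With miR-483-5p, 3 of 3 names of the list were lower in heart (median -2.84), all at low levels. miR-335, hosted by the imprinted gene Mest, was at 10.4, 14.5 and 25.2 CPM in heart and below all muscle libraries (-1.68 ± 0.17, adjusted p = 9.13e-09). A further cluster, noticed after its values were seen, was at chrX:17919195-17930716, where 6 of 6 names (miR-532-5p, miR-532-3p, miR-188-5p, miR-362-3p, miR-501-3p and miR-500-3p) were lower in heart without overlap, with log2 differences from -2.97 to -0.94. miR-205, a miRNA of stratified epithelium, was also among the largest decreases, at 0.16, 0.786 and 4.86 CPM in heart, 18.4, 34.3 and 73.6 in soleus and 44.4, 77.2 and 140.4 in biceps (-5.75 ± 0.43, adjusted p = 3.12e-11).

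Families that most tissues use differed by less. Of 15 names of the miR-17-92 cluster and its paralogs, which act in proliferation, 13 were higher in heart and 0 lower, with a median of 1.21, and the 8 names of the chromosome 15 cluster were all higher (median 1.37). miR-92a-3p was at 2734, 3676 and 5392 CPM in heart, 808, 1263 and 1849 in soleus and 1016, 1285 and 1561 in biceps (1.65 ± 0.10, adjusted p = 7.46e-13). For miR-19b-3p, a member of the cluster, heart held 56.3, 87.7 and 117 CPM and the difference was 1.46 ± 0.21 (adjusted p = 1.19e-06), with overlap only through soleus 10. Of 12 names of the miR-99, miR-100 and miR-125 families, 11 were higher and 0 lower (median 0.80). With TMM and with DESeq2 10 were higher and 1 lower, and with library totals and without the 3 libraries with a lane 8 run 11 were higher and 1 lower. miR-125a-5p, at 4433, 4945 and 5589.7 CPM in heart, exceeded all muscle libraries (1.18 ± 0.10, adjusted p = 2.87e-10), and so did miR-100-5p (1.32 ± 0.11, adjusted p = 2.15e-10).

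The miR-181 family, which acts in lymphocytes and in muscle differentiation, was not uniform. miR-181c-5p was at 2152, 2379 and 2875 CPM in heart, 852, 956 and 1095 in soleus and 318, 395 and 550.1 in biceps (2.02 ± 0.07, adjusted p = 1.86e-17). miR-181d-5p, from the same cluster, differed by 2.11 ± 0.11 (adjusted p = 1.25e-13) and miR-181a-5p, the most counted member, by 1.08 ± 0.08 (adjusted p = 3.81e-11), each without overlap. miR-181b-5p, with the same seed, was at 741, 917 and 1114 CPM in heart, overlapping the muscle range, and was not called (-0.07 ± 0.10, adjusted p = 0.564), although TMM scaling called it lower (-0.34, adjusted p = 0.00345). In all, 6 of 9 names were higher and 1 lower, against 3 lower with TMM and with DESeq2.

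Of 29 let-7 and miR-98 names, among the most conserved repressors of growth genes, 19 were higher in heart and 0 lower (median 0.63), a count that became 23 and 0 without the libraries with a lane 8 run. With TMM (median 0.36) and with DESeq2 (median 0.40) 18 were higher and 1 lower. let-7a-5p was at 2429, 4728 and 5543 CPM in heart, 2345, 3111 and 4083 in soleus and 1154, 2510.3 and 3198 in biceps (0.77 ± 0.11, adjusted p = 2.45e-06), and the lowest heart value was that of heart 3. Without the 3 libraries heart began at 4092 CPM, just above the highest muscle library at 4083, and the difference was 0.79 ± 0.06 (adjusted p = 4.53e-10). The more abundant let-7f-5p differed by 0.43 ± 0.08 (adjusted p = 4.34e-05), and let-7c-5p by 0.18 ± 0.09, which was not called (adjusted p = 0.0831), but was without animal 8 (0.22, adjusted p = 0.0328) and without the 3 libraries with a lane 8 run (0.19, adjusted p = 0.0331). The value of let-7c-5p turned to -0.09 with TMM and to -0.04 with DESeq2, and neither called it. Of 15 miR-30 names, 11 were higher and 1 lower (median 0.31), but with TMM only 7 were higher, 2 lower and the median was 0.03. miR-30e-5p, at 18267, 27924 and 30809.6 CPM in heart, 9970.2, 11513 and 12768 in soleus and 6127, 8598 and 10732 in biceps, did not overlap (1.51 ± 0.11, adjusted p = 1.54e-11), nor did miR-30c-5p (0.90 ± 0.10, adjusted p = 1.64e-08). miR-30d-5p was higher than in soleus (0.95, adjusted p = 5.43e-09), and its difference from biceps was not called (0.02 ± 0.09, adjusted p = 0.868).

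In 3 of 39 seed families with at least 2 tested members, called members went in opposite directions. The family of miR-15, miR-16, miR-195, miR-322 and miR-497, which restrains the cell cycle, was one. miR-16-5p (0.68 ± 0.09, adjusted p = 7.75e-07) and miR-322-5p (1.56 ± 0.10, adjusted p = 4.12e-12) were higher in heart, and miR-497-5p (-0.46 ± 0.09, adjusted p = 0.000102) and miR-195-5p (-0.30 ± 0.09, adjusted p = 0.0053) were lower. The last pair, from a shared hairpin cluster, was below soleus (-0.83 and -0.70) and was not called against biceps (-0.09 ± 0.10 and 0.11 ± 0.10, adjusted p = 0.459 and 0.353). miR-15 family names without miR-322 counted 4 higher, 3 lower and 2 not called of 9 (median 0.43), and the X-linked cluster of miR-322 and miR-503 counted 5 higher and 1 lower of 7 (median 0.77). The other 2 families, picked out after their values were seen, were miR-146a-5p against miR-146b-5p (-1.02 ± 0.19, adjusted p = 3.71e-05) and miR-190a-5p (0.95 ± 0.12, adjusted p = 3.19e-07) against miR-190b-5p (-0.88 ± 0.18, adjusted p = 0.000129).

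Against each muscle on its own, 380 names differed from soleus (67.9%; 211 higher, 37.7%, and 169 lower, 30.2%) and 381 from biceps (68.0%; 205 higher, 36.6%, and 176 lower, 31.4%), both with the same heart libraries. With at least a 2-fold difference, 88 were higher (15.7%) and 129 lower (23.0%) than in soleus, and 108 higher (19.3%) and 144 lower (25.7%) than in biceps. In both comparisons 173 names were called higher in heart, 144 lower, and 11 were called in opposite directions. Of those 11, 6 were lower than soleus and higher than biceps. These were both miR-208b arms, miR-190b-5p, miR-23a-3p, miR-24-2-5p and miR-27a-3p. miR-190b-5p was at 2.29, 3.35 and 4.39 CPM in heart, 12.0, 20.6 and 40.8 in soleus and 1.00, 1.54 and 3.07 in biceps, so that soleus stood alone above both. miR-27a-3p, at 1871, 2195 and 2343 CPM in heart, 2513, 2802 and 3475 in soleus and 870.1, 1076 and 1646 in biceps, placed heart between muscles that did not overlap it (log2 difference -0.27, adjusted p = 0.00196, and 1.00, adjusted p = 2.47e-11). miR-23a-3p from the same cluster lay between them too (-0.35 and 0.79), and the mean of its log2 differences, 0.22 ± 0.10 (adjusted p = 0.0477), turned to -0.04 with TMM and was not called without any of the animals 2, 3, 4, 5, 6, 7, 9 or 11, nor without the 3 libraries with a lane 8 run (0.22, adjusted p = 0.0829). Of the 11 names in the miR-23, miR-27 and miR-24 list, 8 were higher and 2 lower (median 0.36), against 4 and 3 with TMM. The 5 names higher than soleus and lower than biceps were miR-504, miR-1839-5p, miR-28-5p, miR-29c-5p and miR-874-3p, with miR-504 the clearest, at 35.4, 46.2 and 55.5 CPM in heart, 16.5, 22.3 and 32.8 in soleus and 35.1, 59.3 and 77.9 in biceps. Most of these 11 were picked by this count and not by the rule for named miRNAs.

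Names typical of other organs were also counted. The liver miRNA miR-122-5p (at most 8.82 CPM in a heart library) and the pancreatic islet miRNA miR-375-3p (at most 25.1 CPM) were not called, although miR-375-3p passed without animal 4 (0.87) or animal 8 (0.85). Of 4 neural names, 1 was higher (miR-9a-5p, 1.72 ± 0.28, adjusted p = 1.06e-05), 1 lower (miR-138-5p, -0.44 ± 0.16, adjusted p = 0.0207, and 0.0625 without animal 6) and 2 not called. Without the 3 libraries with a lane 8 run miR-138-5p was not called (-0.35, adjusted p = 0.0545). Of 10 epithelial names, 7 were higher, 2 lower and 1 not called (median 1.29), and 5 were higher and 2 lower with TMM and with DESeq2. The largest difference of this list was that of miR-205 (-5.75), described above, which was lower in heart. Of the 7, 5 belong to the miR-200 family, which holds epithelial cells in their state, and were low in all libraries: miR-141-3p was at 9.41, 14.8 and 25.3 CPM in heart, 0.594, 2.47 and 4.09 in soleus and 1.32, 1.80 and 3.89 in biceps (2.85 ± 0.21, adjusted p = 3.28e-11), and miR-200c-3p, miR-429, miR-200b-3p and miR-200a-3p differed by 3.44, 2.91, 2.43 and 2.19. These were chosen after their values were seen. Of 8 names studied in heart disease, 5 were higher and 1 lower (median 0.52). Beside miR-490-3p and miR-22-3p, miR-34a-5p, a target of p53, was at 82.0, 108 and 123 CPM in heart and above all muscle libraries (1.72 ± 0.11, adjusted p = 1.88e-12).

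The first base of a miRNA sets its seed, so the share of counts that began at the main 5′ start was compared for 97 names with at least 200 placed counts in each library. With all 30 libraries, an exact two-sided sign-flip permutation test over 10 animals called 0 of 97 (0.0%), and 1, miR-101a-3p, had an unadjusted p under 0.05. The libraries with a lane 8 run differed from the others in this measure: their median share at the main start was 48.7% (heart 3), 49.7% (soleus 8) and 44.6% (biceps 10), against 99.0% to 99.3% in the other 27. Without those 3 libraries, a choice made after seeing the data, 36 of 97 names were called (37.1%), 30 with a higher share in heart (30.9%) and 6 with a lower one (6.19%). When animal 3 was left out as a whole the count was also 36, but with 35 higher and 1 lower, while soleus 8 and biceps 10 still counted among the muscles. Without the 3 libraries, animal 3 had no heart library and animals 8 and 10 had 1 muscle each, which stood for the mean of both. In the 7 animals with all 3 libraries, the mean difference of each of the 36 names had the same sign, and for 28 it had that sign in 7 of 7 animals.

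Most of these differences were small. The largest was that of miR-101a-3p, a repressor of the chromatin enzyme Ezh2, whose reads began at either of a pair of neighboring bases. Main means the start of the sequence with the most counts over all 30 libraries, those with a lane 8 run included. The RefSeq sequence of miR-101a-3p begins at the other base, that of the shifted form. Its main and its shifted form, the latter with 48.6% of the counts in the 27 libraries, are shown as deposited, with bases 2 to 8 in capitals.
miR-101a-3p, main start: gTACAGTActgtgataactga
miR-101a-3p, 1 base downstream: tACAGTACtgtgataactgaat
The main start took 42.9%, 46.3% and 48.1% of its counts in the lowest, median and highest heart library, 51.0%, 53.2% and 54.9% in soleus, and 55.8%, 57.3% and 59.5% in biceps. Heart was below both muscles in every library, by -9.56 ± 2.69 percentage points (SD over 9 animals; exact p = 0.00391, the smallest that 9 animals allow, adjusted p = 0.018). With all 30 libraries the difference was -8.64 ± 5.58 points (10 animals; exact permutation p = 0.00391, adjusted p = 0.379). miR-3068-3p went the other way, with the main start at 57.8%, 62.9% and 66.3% in heart, 54.2%, 57.2% and 61.5% in soleus, and 45.6%, 52.8% and 60.3% in biceps, a difference of 6.60 ± 5.14 points. Smaller differences were those of miR-133a-5p (4.44 ± 2.26, exact permutation p = 0.00781, adjusted p = 0.0261) and miR-101b-3p (3.86 ± 2.30, the same p), each higher in 8 of 9 animals. miR-146a-5p gave 4.13 ± 3.46 (exact permutation p = 0.0117, adjusted p = 0.0334). miR-192-5p (2.85 ± 0.93), miR-378a-5p (2.77 ± 0.64), miR-486-3p (2.49 ± 1.36) and miR-199a-3p (2.08 ± 1.26) were higher in heart and miR-10b-5p differed by -1.30 ± 0.47, all with the same exact p = 0.00391 in a permutation over 9 animals.

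**Figure D4:**
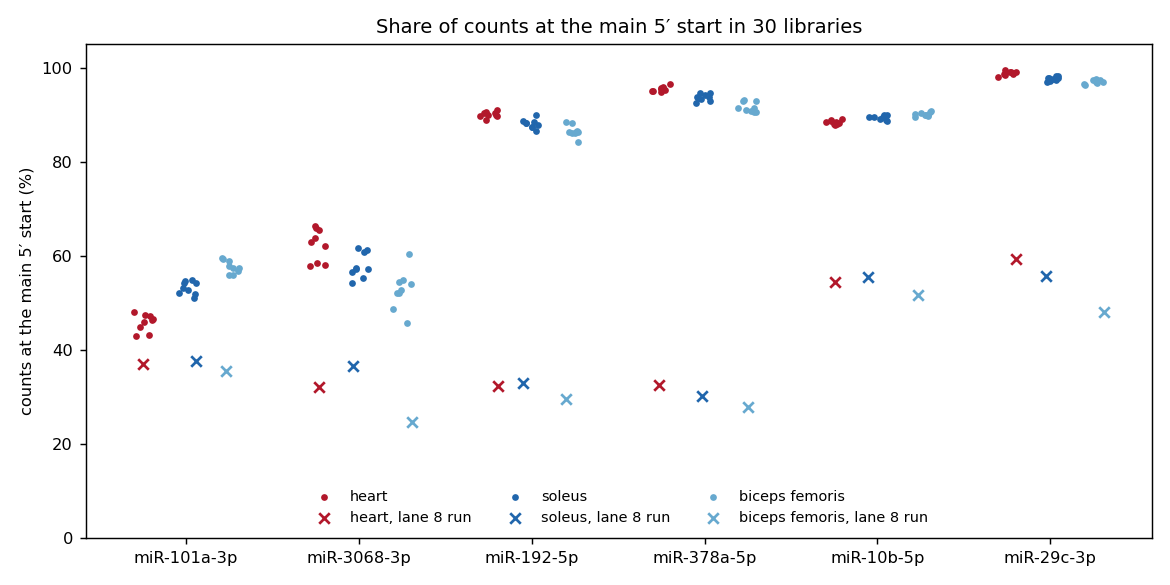
Share of a miRNA's counts that began at its main 5′ start (percent) for 6 miRNAs in the 30 libraries; points are libraries without a lane 8 run and crosses are heart 3, soleus 8 and biceps 10. The crosses lie far below the points of the same tissue, and among the points miR-101a-3p runs from 42.9% to 48.1% in heart, below both muscles.

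Each hairpin gives a 5p and a 3p arm, and their ratio within a library does not depend on scaling. For 35 hairpins with at least 20 counts of each arm in every library, the log2 ratio of 5p to 3p differed between heart and the mean of the animal's muscles for 20 (57.1%), with 7 higher (20%) and 13 lower (37.1%) in an exact two-sided sign-flip test. The largest difference was that of miR-29c, at -5.14, -4.88 and -4.54 in the lowest, median and highest heart library, -4.61, -3.91 and -3.36 in soleus, and -3.65, -3.36 and -2.92 in biceps. It was -1.23 ± 0.28 (SD of 10 animals; exact permutation p = 0.00195, the smallest possible, adjusted p = 0.00621), so the 3p arm dominated more strongly in heart in 10 of 10 animals. In the test of levels miR-29c-3p was higher in heart by 1.24 and miR-29c-5p was not called (0.00 ± 0.12, adjusted p = 0.985). miR-542 (-1.09 ± 0.37), miR-27b (-1.002 ± 0.30), miR-22 (-0.94 ± 0.35) and miR-152 (-0.72 ± 0.31) moved the same way in 10 of 10 animals. In the opposite direction, miR-30a differed by 0.80 ± 0.32 in 10 of 10 animals (all with the same exact p), and miR-30e by 0.78 ± 0.42 in 9 of 10 (exact permutation p = 0.00391, adjusted p = 0.00854). The count was 21 of 35 without the 3 libraries with a lane 8 run, with 8 higher and 13 lower.

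**Figure D5:**
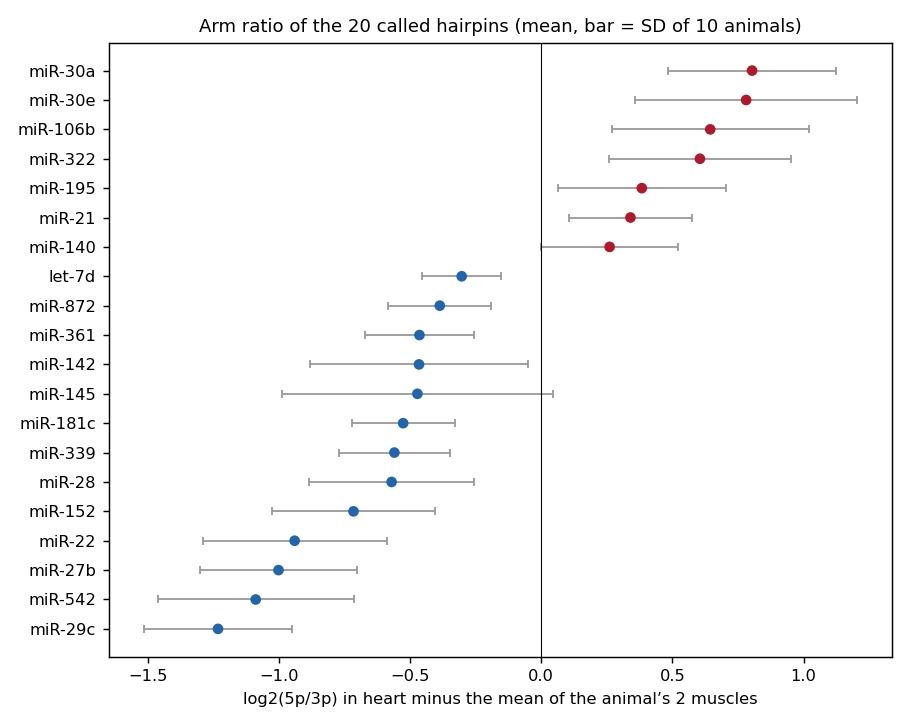
Difference in the log2 ratio of 5p to 3p counts, heart minus the mean of the soleus and the biceps femoris of the same animal, for the 20 called hairpins; the point is the mean of 10 animals and the bar the SD. miR-29c, miR-542 and miR-27b have the largest negative values, from -1.002 to -1.23, and miR-30a and miR-30e the largest positive ones, 0.80 and 0.78.

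Whether heart and muscle differed by another amount in females than in males was tested as an interaction. edgeR called 0 of 560 names (0.0%), with 41 at an unadjusted p under 0.05 and a smallest adjusted p of 0.176, and DESeq2 called 4. The leading name was miR-409a-3p of the Dlk1-Dio3 region, with a log2 difference of -2.91 in females and -4.07 in males, a difference of 1.17 ± 0.28 (adjusted p = 0.176). miR-341 (0.79 ± 0.21) and miR-134-5p (1.32 ± 0.35), of the same region, had the same adjusted p, as had miR-452-5p (-1.49 ± 0.38), which was 1.45 higher in heart in males and -0.04 in females. miR-335 (-0.90 ± 0.27) and a composite of predicted names, chr15_38550-5p;chr15_39299-5p;chr6_21271-5p (1.42 ± 0.43), followed (adjusted p = 0.253). None passed in this fit, and with DESeq2 the 4 called were miR-335, miR-452-5p and miR-3107-5p (adjusted p = 0.0196 each) and miR-3068-3p (adjusted p = 0.0485). The libraries with a lane 8 run were heart 3, from a male, and soleus 8 and biceps 10, from females. On that lane miR-3107-5p was at 3284, 2620 and 4285 CPM in these libraries, against 98.8, 57.9 and 101 on the other run. High values also occurred outside that lane. Among libraries without a lane 8 run, the median and the highest were 123 and 2918 CPM in heart, 103 and 592 in soleus, and 103 and 963 in biceps. What lane 8 contributed to the call of miR-3107-5p was not tested.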

How the data were processed

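Raw counts per miRNA name and per isomiR sequence, 1 column for each sequencing run, were used as deposited. Per the study's methods, the authors removed adaptors with cutadapt 1.4.1, trimmed by quality, discarded short reads and those with an undetermined base, collapsed identical sequences, and counted them with miRDeep2 against miRBase precursors of rat and then of mouse, human and C. elegans, with predicted names from the rat genome rn5. Reads that matched several precursors carry a composite name. In the 30 libraries, 93.4% of counts had a single name, 5.80% a composite, 0.750% a predicted and 0.0216% a precursor name, and paralogs with near-identical sequence remain uncertain.

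Runs were summed per library, with a lane deposited more than once used once (62 of 64 deposited runs). The 394 isomiR columns that belong to other samples were not used. Heart was tested against the mean of soleus and biceps femoris with edgeR 4.0.16 in R 4.3.3 (quasi-likelihood F test, upper quartile scaling, filterByExpr, animal as a block, Benjamini-Hochberg threshold 0.05). The contrast is the mean of the log2 differences from each muscle. Errors are SE = the absolute log2 difference divided by the square root of F. CPM are counts over library total, times 1000000, and at 2993535 counts or more per library a name at 1 CPM rests on a few counts. Intervals and floors cover counting error only. The animal block follows from the labels, which give the animal of every library. Deviations from the tissue means over 320 names had a median correlation of 0.056 in 30 pairs of libraries of the same animal and 0.0074 in 270 pairs of different animals.

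IsomiRs were placed on the leading sequence of their name with at most 1 mismatch and at least 14 overlapping bases. Shares of 5′ starts and log2 ratios of arms (pseudocount 0.5) were compared per animal with an exact two-sided sign-flip permutation test, whose smallest p is 0.00195 for 10 animals. Figures and sums used Python 3.11.15, numpy 2.4.6, pandas 2.3.3 and matplotlib 3.10.9. The scripts were tested on simulated data.

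Alternatives were TMM scaling, library totals, DESeq2 1.42.0, no filter, a mean CPM of at least 10, no block, 19 tissues in the fit, other sets of runs, leaving out re-extracted RNAs, predicted names or each animal, and 1 sex at a time. Leaving out the 3 libraries with a lane 8 run was added after seeing the data. The tissues compared, the lists and the named miRNAs were chosen with earlier results of these data known, so that counts within a list describe it and do not test it. Named were all names of the myosin and muscle families and all blood markers, the 12 largest differences each way among names with at least 50 CPM and no overlap, the 5 most counted names per tissue, up to 4 leading members of each other list, the 6 smallest p in the tests of starts, arms and sex, and the names the study lists for heart, of which miR-509-3p and miR-126-3p did not pass the count filter and were not tested.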

Additional observations from a re-analysis of the deposited data

Results flagged for a closer look

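For the named miRNAs, 346 groups of 10 libraries of a tissue were checked for a library whose gap to its nearest neighbor was large against the range of the group (Dixon's test at its 95% critical value), which chance meets in about 1 in 20 groups. It was met 67 times, for 51 names, and 19 of these fell in the 3 libraries with a run on lane 8 of C2BUMACXX. Values are CPM, and each was the highest of its tissue unless said to be the lowest.

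Biceps 10, with a lane 8 run, had the highest miR-486-5p (12689), miR-3107-5p (3774), miR-133b-3p (792), miR-1a-3p (1265), composite miR-133a-3p;miR-133b-3p (7086), miR-335 (109) and miR-124-3p (7.02). It had the lowest let-7i-5p (2136) and composite miR-378a-3p;miR-378b (718). Soleus 8, with a lane 8 run, had the highest miR-486-5p (8136), miR-3107-5p (2161), miR-133b-3p (1283) and miR-1a-3p (990) and the lowest composite miR-378a-3p;miR-378b (568). Heart 3, with a lane 8 run, had the highest miR-486-5p (10334), miR-133b-3p (226), miR-1a-3p (942) and composite miR-133a-3p;miR-133b-3p (2196) and the lowest let-7a-5p (2429). On its lane 8 run heart 3 had 12458 CPM of miR-486-5p against 342 on the other, and 270 against 14.7 CPM of miR-133b-3p.

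Biceps 2 had the highest miR-21-5p (4680), miR-27a-3p (1646), miR-27b-3p (18971), miR-142-5p (386), miR-196a-5p (382), miR-93-5p (268), miR-34a-5p (59.2), miR-181c-3p (35) and miR-201-5p (2.56). Biceps 7 had the highest miR-208a-3p (6.57) and miR-490-3p (6.35) of that tissue, both names of the heart, and biceps 3 the highest miR-122-5p (5.53).

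Soleus 10 had the highest miR-10a-5p (24992), miR-10b-5p (95027), miR-125b-5p (3100), miR-335 (99.3) and miR-19b-3p (61.5), and the lowest miR-15a-5p (200) and miR-29c-3p (140). Soleus 11 had the highest miR-21-5p (3349), miR-1-3p (1221), composite miR-3107-3p;miR-486-3p (68.1) and miR-223-5p (7.27). Soleus 9 had the highest miR-215 (1481), miR-192-5p (1099), miR-194-5p (96.4) and miR-375-3p (17.4). The highest let-7c-5p (5503) and miR-431 (161) were those of soleus 5, the highest miR-208b-3p (3951) that of soleus 4, the highest miR-378a-5p (652) that of soleus 6, and the highest miR-378b (51.9) that of soleus 2.

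Heart 5 had the highest miR-30c-5p (18200), miR-16-5p (8603), miR-145-5p (865), miR-142-3p (103) and miR-196b-5p (2.85) and the lowest miR-27a-3p (1871). Heart 10 had the lowest miR-208a-3p (344) and miR-30e-5p (18267) and the highest miR-322-3p (199), miR-6314 (12.0) and miR-122-5p (8.82). Heart 9 had the highest miR-215 (193), miR-378b (12.9) and miR-337-5p (2.39), heart 7 the highest miR-145-3p (473) and heart 11 the highest miR-205 (4.86).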

How the results depend on the processing

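The count of 402 names that differed between heart and the mean of both muscles was between 384 and 420 when each animal was left out. It was 204 of 293 on flow cell D1GBMACXX alone, 289 of 365 at a mean CPM of at least 10 and 327 in females alone. With 19 tissues it was 464 of 984, and with no filter on low counts 406 of 4137. Without lane 8 of C2BUMACXX it was 400 of 561, and without the 3 libraries with a run on it 413 of 559. The other alternatives gave 364 to 415. Of the 402, 357 were also called with TMM, 363 with DESeq2, 334 with 19 tissues and 255 with no filter. Shared calls numbered 386 without lane 8 and 394 without the 3 libraries. All these shared calls had the same direction. For 2-fold differences the range without each animal was 219 to 234, against 363 with no filter, 355 with 19 tissues and 113 on D1GBMACXX alone. Against soleus it was 360 to 384 (206 on D1GBMACXX alone) and against biceps 368 to 399 (195 on D1GBMACXX alone). Names without overlap, 68 above and 102 below in the main count, numbered 108 in all on that flow cell, which gave 303072 to 801016 counts per library. Interaction with sex gave 0 without each animal, 4 with DESeq2, 7 with no filter, 5 with 19 tissues, and 1 with a mean CPM of at least 10 or with predicted names left out, and the cause was not tested. For 5′ starts, 18 of 46 were called without lane 8 of C2BUMACXX and 36 of 97 without the 3 libraries with a run on it, and leaving out single animals gave 0 to 36, the highest without animal 3. For arm ratios, 34 of 62 were called at 5 counts, 8 of 17 at 100 counts, and 8 of 14 without lane 8, where fewer hairpins passed, and 18 to 20 without each animal.

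Without the animal block in place of pairing by animal, the counts were 399, 222 (2-fold), 379 (soleus), 386 (biceps), 5 (sex), 1 (5′ starts) and 21 (arm ratios). Directions of called values turned for miR-486-5p on D1GBMACXX alone (-0.37), miR-23a-3p with TMM (-0.0425) and with no filter (-0.0398), and miR-452-5p in females alone (-0.0446), and the cause was not tested. Of 3263 values of named miRNAs under alternatives, 3079 kept direction and side of the threshold, 102 lost their call and 35 gained one, while 43, of 10 names and called in neither fit, changed sign. Depth limits names below about 1 CPM.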
